A study of Homo sapiens with 9 samples.

Results

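*MYC* and the genes of the MAX and MLX network were followed in VCaP cells after siRNAs against the long noncoding RNA *IGF1R-AS1*. The members were 10 genes chosen by symbol, *MYC*, *MAX*, *MXD1*, *MXD3*, *MXD4*, *MXI1*, *MNT*, *MLX*, *MLXIP* and *MGA*, of 19918 genes in the count tables, and all 10 passed the filter on low counts. VCaP is an established human prostate cancer line of epithelial cells. The 9 libraries fell into 3 groups of 3, and every library came from VCaP cells reverse transfected with 100 pmol of siRNA using RNAiMAX and harvested 72 h later. The control libraries carry the wild-type label, and the si025 and si033 libraries carry the knockdown label and differ in the siRNA used. Both siRNAs were designed against exon 1 of *IGF1R-AS1*. Libraries were made from 1.3 µg of total RNA with a stranded total RNA kit. The study calls the 3 libraries of each knockdown biological replicates, and the labels number them without saying how the cultures were separated. The *p*-values below measure the spread between these libraries. The transcript that the siRNAs target was not analysed here, and the degree of knockdown is therefore not given.

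The siRNA sequences are shown because they are what differs between the groups by design. The study's oligonucleotide list numbers its siRNAs 1# and 2#, and the labels do not say which of these is si025 and which is si033. No base is capitalised.
siRNA negative control: uagcgacuaaacacaucaa
IGF1R-AS1-siRNA-1#: agaaagcacugaagaccuauu
IGF1R-AS1-siRNA-2#: ccguauugcucaguggaaauu

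As background, MYC is a basic helix-loop-helix leucine zipper transcription factor that binds E-box DNA only as a dimer with MAX, and it raises genes of ribosome production, nucleotide synthesis and cell growth. MAX also pairs with the MXD proteins, MXI1, MNT and MGA, which compete with MYC for MAX and for the same sites, most of them by recruiting the SIN3 and histone deacetylase corepressor. MLX forms a parallel arm that pairs with MLXIP, a sensor of glucose metabolites, and with some MXD proteins and MNT. In prostate cancer *MYC* is often amplified or overexpressed.

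Library totals ran from 11649811 to 28492259 counts. Between replicates, the chi-square per degree of freedom over genes was 1.72 to 3.59 in the pairs without si025 replicate 2 and 4.41 and 5.09 in the 2 pairs with it, so every pair differed by more than sampling noise and that library stood somewhat apart. All 10 luminal and prostate markers (*KLK3*, *KRT8* and others) were expressed in every group, with summed levels of 8357 to 8583 CPM in control, 10420 to 10770 with si025 and 7354 to 7662 with si033. CPM here is the count scaled to library size after TMM normalisation. Of 11 markers of fibroblasts, immune, endothelial and basal cells, 7 stayed under 1 CPM in every library and 2 of these were at 0. Their summed level was 19.2 to 20.9 CPM in control, 38.9 to 47.4 with si025 and 10.9 to 12.6 with si033, most of it *LUM*. In bulk samples, fewer cells of a type and less RNA per cell cannot be told apart.

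*MYC* was lower with both siRNAs, and lower with si025 than with si033. It lies at chr8:127736069-127741434 on the plus strand in hg38. Control libraries held 439.5, 457 and 435 CPM of *MYC*. The si025 libraries held 262, 267 and 245 CPM. The si033 libraries held 320.1, 307 and 302 CPM. The 3 groups did not overlap, with every control library above every si033 library and every si033 library above every si025 library. By edgeR's quasi-likelihood test with Benjamini-Hochberg adjustment over 12810 genes, *MYC* fell by 0.78 on the log2 scale with si025 (SE 0.04, adjusted *p* = 4.69e-13). The fitted level fell by 41.9%. With si033 the log2 change against control was -0.52 (SE 0.04, adjusted *p* = 7.16e-10), and the level fell by 30.2%. The direct comparison of si025 with si033 gave -0.26 (SE 0.04, adjusted *p* = 1.74e-05). Over the 18 alternative analyses the call held in all 3 comparisons. The 10 proliferation markers, such as *MKI67*, *CCNB1* and *RRM2*, moved with *MYC*. All 10 fell with each siRNA, and all 10 were lower with si025 than with si033. Of all tested genes, 28.8% fell with si025, 27.8% fell with si033 and 29.7% were lower with si025 than with si033. The summed level of the markers was 3546 to 3688 CPM in control, 2140 to 2191 with si025 and 2586 to 2726 with si033. The part of the markers in the *MYC* result was not tested.

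Across the network, 1 member was higher and 5 were lower with si025, and 4 were higher and 5 were lower with si033. The 5 lower with si033 became 3 without control replicate 2, and also with scaling to library totals alone. The 5 lower with si025 ranged from 4 to 5 over the alternatives. These counts stand beside a large change of the whole transcriptome. With si025, 61.7% of all tested genes passed the adjusted threshold of 0.05, 32.9% higher and 28.8% lower. With si033, 54.8% passed, 26.9% higher and 27.8% lower. The members' share called was 60.0% with si025, near that background, and 90.0% with si033. The median log2 fold change of the members was -0.08 with si025 and -0.05 with si033, against 0.02 and 0.00 over all tested genes. Both comparisons use the same 3 control libraries. Between si025 and si033 themselves, 1 member was higher and 6 were lower with si025, beside 60.9% of all tested genes called, 31.2% higher and 29.7% lower.

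**Figure D1:**
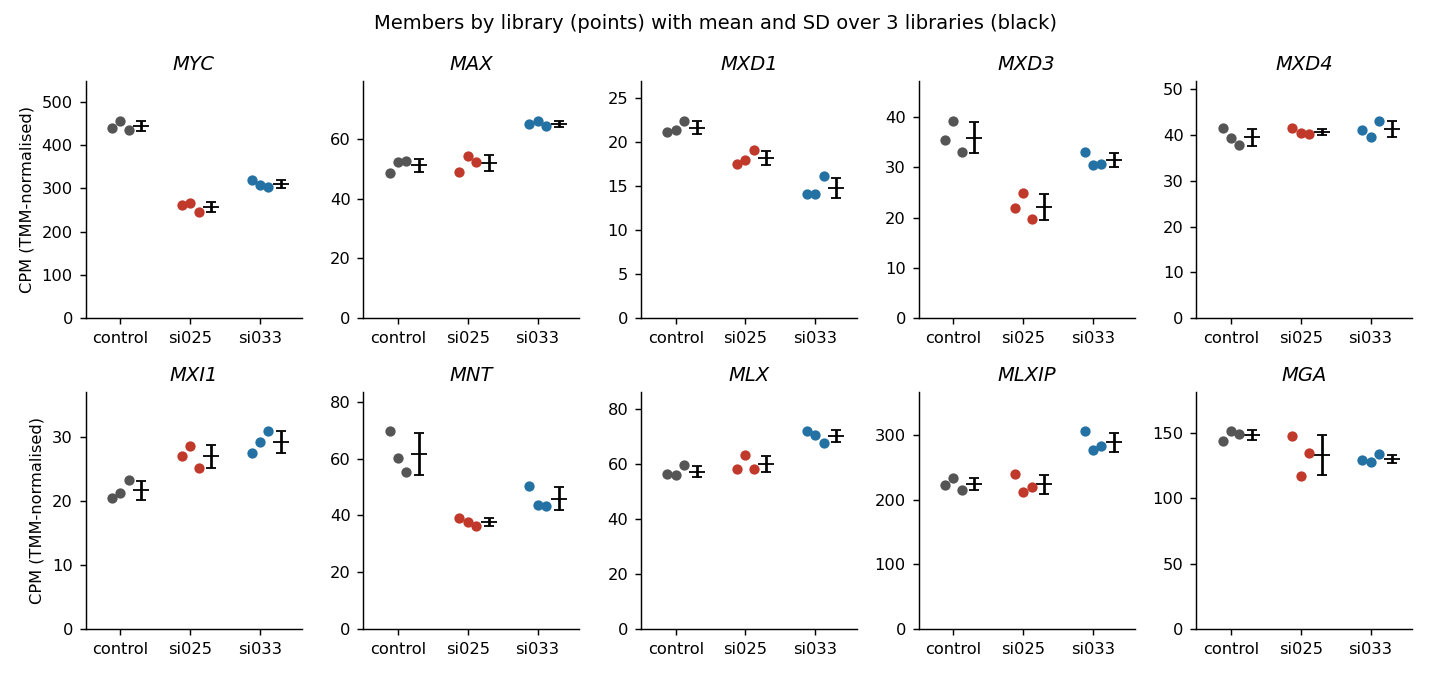
TMM-normalised CPM (vertical axis, from 0) of the 10 members in the control, si025 and si033 groups. Coloured points are libraries and the black mark is the mean with the SD of 3 libraries. *MYC* falls in order from control (mean 444 CPM) through si033 (310 CPM) to si025 (258 CPM), while *MAX*, *MLX* and *MLXIP* stand higher with si033 than in both other groups.

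*MAX*, the shared partner of MYC and its antagonists, was higher with si033 and was not called with si025. It lies at chr14:65006101-65102695 on the minus strand. Control libraries held 48.8, 52.2 and 52.6 CPM of *MAX*, the si025 libraries 49.0, 54.3 and 52.3 CPM, and the si033 libraries 65.0, 66.2 and 64.3 CPM. Every si033 library was above every other library, and the control and si025 ranges overlapped. Against control, si033 gave a log2 fold change of 0.34 (SE 0.05, adjusted *p* = 1.30e-05) and si025 one of 0.02 (95% confidence interval -0.10 to 0.13, adjusted *p* = 0.786). The siRNAs differed from each other by -0.32 (SE 0.05, adjusted *p* = 1.77e-05, si025 against si033).

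Among the antagonists, *MNT*, which encodes a widely expressed MAX partner, fell with both siRNAs. It lies at chr17:2384060-2400964 on the minus strand. Control libraries held 69.6, 60.1 and 55.2 CPM of *MNT*, the si025 libraries 39.2, 37.5 and 36.1 CPM, and the si033 libraries 50.5, 43.5 and 43.4 CPM. The 3 groups did not overlap and kept the order seen for *MYC*. Against control, si025 gave a log2 fold change of -0.70 (SE 0.07, adjusted *p* = 2.37e-08) and si033 one of -0.42 (SE 0.07, adjusted *p* = 3.80e-05), and the direct difference was -0.28 (SE 0.08, adjusted *p* = 0.00308).

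The 4 MXD family genes encode short-lived MAX partners that recruit SIN3, many of them linked to cell differentiation and exit from the cell cycle, and they did not move together. *MXD1* fell with both siRNAs, more with si033. It lies at chr2:69915041-69942945 on the plus strand, and its libraries held 21.1, 21.3 and 22.4 CPM in control, 17.5, 18.0 and 19.1 CPM with si025 and 14.1, 14.1 and 16.1 CPM with si033. No groups overlapped. Its change on the log2 scale reached -0.25 under si025 (SE 0.07, adjusted *p* = 0.00515) and -0.53 under si033 (SE 0.08, adjusted *p* = 3.14e-06). The direct difference was 0.28 (SE 0.08, adjusted *p* = 0.00296), and *MXD1* was the 1 member called higher with si025 than with si033.

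*MXD3*, at chr5:177305500-177312291 on the minus strand, held 35.4, 39.3 and 33.0 CPM in control, 21.9, 24.8 and 19.7 CPM with si025 and 32.9, 30.5 and 30.6 CPM with si033. MXD3 differs from the rest of its family in being known from proliferating cells. Every si025 library was below every other library, while the highest si033 library and the lowest control library nearly met. Against control, si025 gave a log2 fold change of -0.69 (SE 0.08, adjusted *p* = 9.85e-08) and the direct difference between the siRNAs was -0.50 (SE 0.08, adjusted *p* = 1.22e-05). With si033 the change against control was -0.19 (SE 0.08, adjusted *p* = 0.0407). That call was lost in 8 of 18 alternatives, with an adjusted *p* of 0.0897 without si033 replicate 2, 0.140 without si033 replicate 3, 0.0893 without control replicate 1 and 0.264 without control replicate 2.

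*MXI1*, also called MXD2, rose with both siRNAs. It lies at chr10:110207605-110287365 on the plus strand, and its libraries held 20.4, 21.2 and 23.3 CPM in control, 27.1, 28.6 and 25.1 CPM with si025 and 27.4, 29.2 and 30.9 CPM with si033. All 6 siRNA libraries were above all 3 control libraries, and the siRNA groups overlapped. Against control, si025 gave a log2 fold change of 0.30 (SE 0.07, adjusted *p* = 0.00121) and si033 one of 0.43 (SE 0.07, adjusted *p* = 3.06e-05). The direct difference of -0.13 (95% confidence interval -0.27 to 0.01, adjusted *p* = 0.112) did not pass, but it was called without si025 replicate 2 (-0.18, adjusted *p* = 0.0427) and without si033 replicate 1 (-0.18, adjusted *p* = 0.0402).

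*MXD4* passed in none of the 3 comparisons. It lies at chr4:2247432-2262143 on the minus strand and held 41.4, 39.3 and 37.7 CPM in control, 41.4, 40.4 and 40.2 CPM with si025 and 41.1, 39.6 and 43.1 CPM with si033. All groups overlapped. The 95% confidence interval of the log2 fold change against control was -0.07 to 0.17 for si025 and -0.04 to 0.20 for si033, and that of the direct difference was -0.15 to 0.09.

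*MGA*, at chr15:41621139-41769943 on the plus strand, encodes a very large MAX partner that also belongs to the PRC1.6 Polycomb complex, which silences germline genes in somatic cells. Control libraries held 144, 151 and 149.6 CPM of *MGA*, the si025 libraries 148, 117 and 135 CPM, and the si033 libraries 129, 128 and 134 CPM. The si033 libraries lay below all control libraries, while si025 replicate 1 lay within the control range. Against control, si025 gave a log2 fold change of -0.16 (SE 0.06, adjusted *p* = 0.0237) and si033 one of -0.19 (SE 0.06, adjusted *p* = 0.0119). The si025 call was lost without si025 replicate 2 (-0.07, adjusted *p* = 0.208), without control replicate 2 (adjusted *p* = 0.0765) and without control replicate 3 (adjusted *p* = 0.0633). The si033 call was lost without control replicate 2 (adjusted *p* = 0.0584). Scaling to library totals alone lost both calls, with an adjusted *p* of 0.124 and 0.0718. The direct difference was 0.03 (95% confidence interval -0.10 to 0.15, adjusted *p* = 0.736).

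In the parallel arm, *MLX* and *MLXIP* rose with si033 and were not called with si025. *MLX*, at chr17:42567060-42573203 on the plus strand, held 56.3, 55.9 and 59.5 CPM in control, 58.3, 63.4 and 58.3 CPM with si025 and 72.0, 70.6 and 67.8 CPM with si033. *MLXIP*, at chr12:122078728-122147347 on the plus strand and encoding MondoA, held 223, 234 and 216 CPM in control, 241, 213 and 219 CPM with si025 and 306, 278 and 283 CPM with si033. For both genes every si033 library was above all 6 others, and control and si025 overlapped. The log2 fold change with si033 was 0.28 for *MLX* (SE 0.05, adjusted *p* = 1.20e-04) and 0.37 for *MLXIP* (SE 0.05, adjusted *p* = 2.02e-06). With si025 the 95% confidence interval was -0.05 to 0.18 for *MLX* (adjusted *p* = 0.314) and -0.11 to 0.10 for *MLXIP* (adjusted *p* = 0.981). The direct difference was -0.22 for *MLX* (adjusted *p* = 0.00116) and -0.37 for *MLXIP* (adjusted *p* = 1.32e-06).

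**Figure D2:**
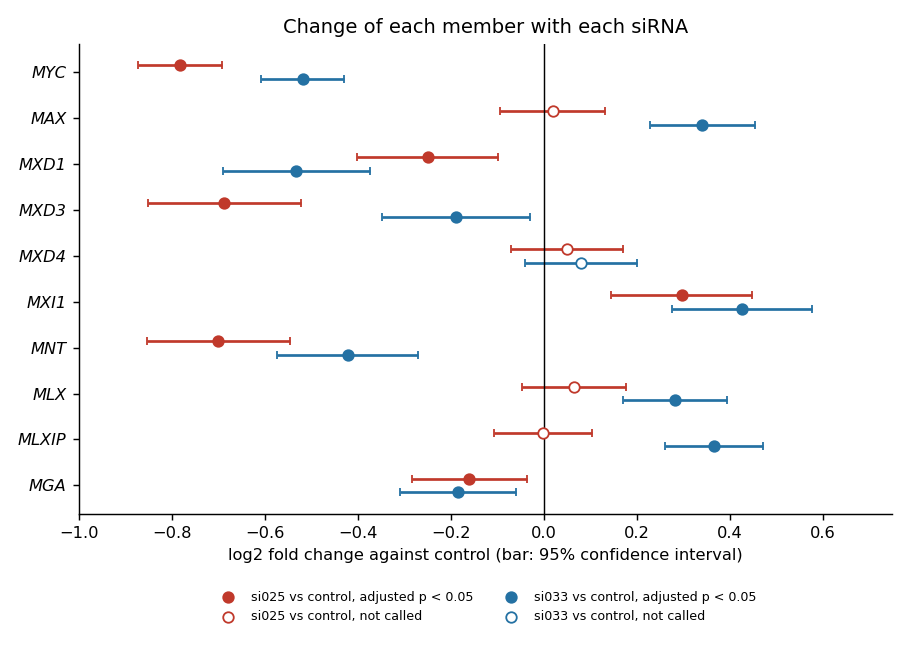
Log2 fold change against control (horizontal axis) of each member with si025 (red) and si033 (blue), with the 95% confidence interval as a bar. Filled points passed the adjusted threshold of 0.05 and open points did not. *MYC*, *MNT* and *MXD3* lie farthest to the left with si025 (-0.78, -0.70 and -0.69), and *MXI1* lies to the right with both.

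Levels between genes were compared per length, as RPKM (CPM per kilobase of exon in the count tables). In control libraries *MYC* stood at 188 RPKM ± 4.86 (SD, *n* = 3), far above *MLXIP* at 25.8, *MLX* at 22.3 and *MAX* at 15.2 RPKM. *MGA* (11.7) and *MXD3* (11.4) followed and were not apart beyond their spread, as were *MNT* (7.89) and *MXD4* (7.29). *MXI1* at 5.64 and *MXD1* at 3.85 RPKM were the lowest. With si025 *MYC* stood at 109 RPKM and *MXD1* stayed last at 3.24 RPKM, with *MNT* next to last at 4.82 RPKM. The neighbours *MLXIP* and *MLX*, *MXD4* and *MXI1*, and *MXI1* and *MXD3* were then not apart. With si033 *MYC* stood at 131 RPKM and *MXD1* at 2.63 RPKM, and the neighbours *MGA* and *MXD3*, and *MXD4* and *MXI1*, were not apart.

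Read as a share, *MYC* was set against the summed RPKM of *MYC* and the 6 other MAX partners among the members. It made up 79.4%, 79.9% and 79.9% of this sum in the control libraries. The share was 72.8%, 73.8% and 72.7% with si025 and 75.3%, 75.2% and 74.1% with si033. No group overlapped another. The 6 other partners together held 46.3 to 48.6 RPKM in control, 38.9 to 41.4 with si025 and 42.7 to 44.7 with si033, so they were lower as well. The MYC family genes *MYCN* and *MYCL*, which are not members, were left out of the sum. The mean of *MYCL* was 1.82 RPKM in control, 2.52 with si025 and 1.11 with si033. The RPKM ratio of *MYC* to *MAX* was 11.8 to 12.8 in control, 6.66 to 7.60 with si025 and 6.60 to 7.01 with si033. These ratios of mRNA levels are a description and were not tested, and protein was not measured.

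**Figure D3:**
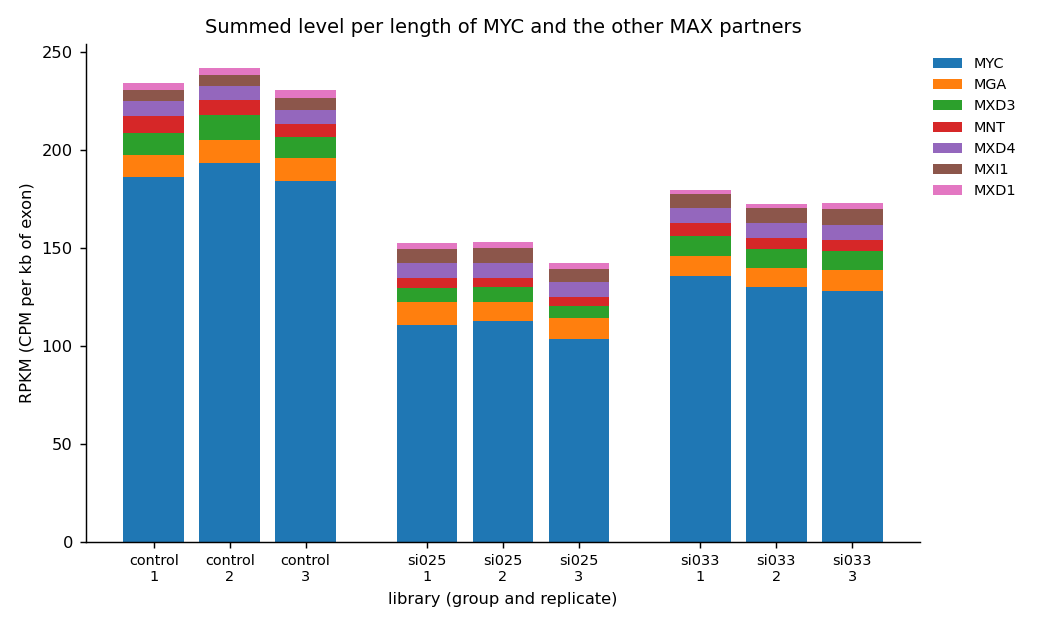
RPKM of *MYC* and the 6 other MAX partners among the members, stacked for each of the 9 libraries (vertical axis from 0, RPKM, and horizontal axis, library). The stacks reach 230 to 242 RPKM in control, 142 to 153 with si025 and 172 to 179.6 with si033, and *MYC* is the largest block in each.

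The genes whose levels followed *MYC* most closely were found by the root mean square difference of log2 CPM over the 9 libraries, each gene centred on its own mean. The 5 nearest were *RRM1* (0.0398), *KIF18B* (0.0476), *FDPS* (0.0494), *WDR34* (0.0504) and *TPX2* (0.0528). *RRM1* encodes the large subunit of ribonucleotide reductase, *KIF18B* and *TPX2* encode mitotic spindle proteins, *FDPS* makes farnesyl diphosphate, and *WDR34* encodes a dynein chain. *RRM1* held 244 CPM ± 7.50 (SD, *n* = 3) in control, 146 ± 5.38 with si025 and 176 with si033, where the SD was 1.0. Among the members *MNT* was nearest to *MYC* (0.102), then *MXD3* (0.153), and *MXI1* was farthest (0.493). The points share libraries and depth, and the order is a description.

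Of the network genes outside the 10, *MYCN* stayed near 0, and *MYCL*, a low-expressed MYC family gene, moved in opposite directions. *MYCL* held 9.07, 9.27 and 8.69 CPM in control, 13.3, 12.6 and 11.6 CPM with si025 and 6.51, 4.95 and 5.07 CPM with si033. Its change on the log2 scale reached 0.47 under si025 (SE 0.11, adjusted *p* = 5.48e-04) and -0.73 under si033 (adjusted *p* = 2.22e-05). *MLXIPL*, which encodes ChREBP, held 3.67 to 5.06 CPM in control, 4.46 to 6.54 with si025 and 4.41 to 6.18 with si033. Its log2 fold change of 0.38 with si025 (adjusted *p* = 0.0555) was not called but was called in 9 of 18 alternatives, among them without si025 replicate 2 (0.51), without si033 replicate 2 (0.38) and without control replicate 1 (0.49). With si033 it was 0.36 (adjusted *p* = 0.0814), called without si033 replicate 2 (0.45) and without control replicate 1 (0.48).

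Some list genes named in the paragraphs that follow, outside those set by role, were chosen after their values were seen. They are *UBTF*, *TERT*, *EIF4E*, *CLU*, *CEBPA*, *GADD45A*, *THBS1*, *KLF10*, *PFKFB3*, *KAT2A*, *GSK3B*, *PPP2R5A*, *SKP2*, *CIP2A*, *PPP2CA*, *SAP30L*, *ARID4A*, *RYBP*, *YAF2*, *CBX1*, *CBX3*, *TFDP1*, *SMC1B* and *TDRD1*.

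Genes known to be activated by MYC were lower with both siRNAs in most cases. Of 39 tested of 40 listed, 37 fell with si025 and none rose, beside 28.8% of all tested genes that fell, and the median log2 fold change was -0.47 against 0.02 over all tested genes. With si033, 29 fell and 1 rose, beside 27.8% that fell in all, with a median of -0.26 against 0.00. *ODC1*, the entry enzyme of polyamine synthesis, held 441, 440.3 and 447 CPM in control, 189.8, 204 and 196 CPM with si025 and 278, 301 and 280.4 CPM with si033. Its log2 fold change was -1.17 with si025 and -0.63 with si033 (adjusted *p* = 5.64e-16 and 2.15e-11). The nucleolar protein gene *NCL* changed by -0.56 and -0.39, and *CAD*, of pyrimidine synthesis, by -0.43 and -0.25. *CDK4*, a G1 kinase, changed by -0.52 and -0.25, and *SRM*, of spermidine synthesis, by -0.50 and -0.17. The *SRM* call with si033 was lost without si033 replicate 3 (-0.14) and without control replicate 2 (-0.14). *LDHA*, which makes lactate, held 631, 666 and 698 CPM in control and 425, 463 and 439.8 CPM with si025, a log2 fold change of -0.59, and 635, 678 and 651 CPM with si033, which was not called (-0.02, 95% confidence interval -0.12 to 0.07, adjusted *p* = 0.683). *NPM1* changed by -0.50 and -0.17, and it has processed pseudogenes that make its count less certain. *UBTF* was the gene called higher with si033 (0.12), and *TERT* and *EIF4E* were the genes not called with si025. The count of 1 moved to 0 without si033 replicate 1 and without control replicate 1, and to 2 without si033 replicate 3. With *UBTF* itself the call was also lost without control replicate 3 (0.12), and *TERT* was called with si025 without si025 replicate 2 (-0.68). Proliferation markers moved with this list (summed levels above), and their part in it was not tested.

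Genes known to be repressed by MYC split. Of 11 tested of 12 listed, 7 rose and 1 fell with si025 (median 0.22), and 3 rose and 4 fell with si033 (median 0.02). Over all tested genes 32.9% rose and 28.8% fell with si025, and 26.9% rose and 27.8% fell with si033. *CDKN1A*, the p21 cell cycle inhibitor, held 30.1, 32.4 and 31.1 CPM in control, 50.4, 53.9 and 52.7 CPM with si025 and 13.8, 14.2 and 13.0 CPM with si033. It rose by 0.75 on the log2 scale with si025 and fell by 1.20 with si033 (adjusted *p* = 9.48e-11 and 9.57e-13), and the direct difference was 1.95. *NDRG1* also moved both ways, at 0.41 with si025 and -0.19 with si033 (adjusted *p* = 1.02e-09 and 1.13e-04). The secreted chaperone gene *CLU* went the other way, at -0.28 with si025 and 0.72 with si033. *THBS1*, which encodes thrombospondin 1, rose by 1.30 with si025 and fell by 0.64 with si033 (adjusted *p* = 5.07e-16 and 1.28e-10). *GADD45A* fell with si033 (-1.39) and was not called with si025 (-0.11), and *CEBPA* rose with both (0.73 and 0.40), the si033 call being lost without control replicate 3 (0.30). *CDKN1B*, which encodes p27, was not called with si025 (0.10) and was called with si033 (0.16, adjusted *p* = 0.0250), a call lost without si033 replicates 2 (0.09) or 3 (0.16) and without control replicates 1 (0.15) or 2 (0.14).

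Among targets of the MLX arm, of 5 tested of 6 listed, 3 rose with si025 and 4 with si033, and none fell in either. The share called was 60.0% with si025 and 80.0% with si033, beside 61.7% and 54.8% of all tested genes, of which 32.9% and 26.9% were higher. The medians were 0.21 and 0.22. *KLF10* (0.68 and 0.36) and *PFKFB3* (0.30 and 0.19) were called higher with both. The *PFKFB3* call with si033 was lost without any 1 of si025 replicates 1 or 3 (0.19 in each), si033 replicate 3 (0.06) and control replicates 1, 2 or 3 (0.22, 0.22 and 0.14). *TXNIP*, the thioredoxin-interacting protein and best known MondoA target, held 329, 308 and 343 CPM in control, 377, 382 and 377 CPM with si025 and 393, 413 and 397 CPM with si033. It rose by 0.21 with si025 (SE 0.04, adjusted *p* = 2.13e-04) and by 0.29 with si033 (adjusted *p* = 4.90e-06), and the direct difference did not pass (-0.08, 95% confidence interval -0.17 to 0.01, adjusted *p* = 0.0994). *ARRDC4*, a relative of *TXNIP*, changed by 0.04 with si025 (adjusted *p* = 0.662) and by 0.22 with si033 (adjusted *p* = 0.00588), and the si033 call was lost without si033 replicate 3 (0.17), which left 2 of the 5 genes called. *HK2*, a glycolysis enzyme gene, was not called against control with either (-0.11 and 0.05).

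**Figure D4:**
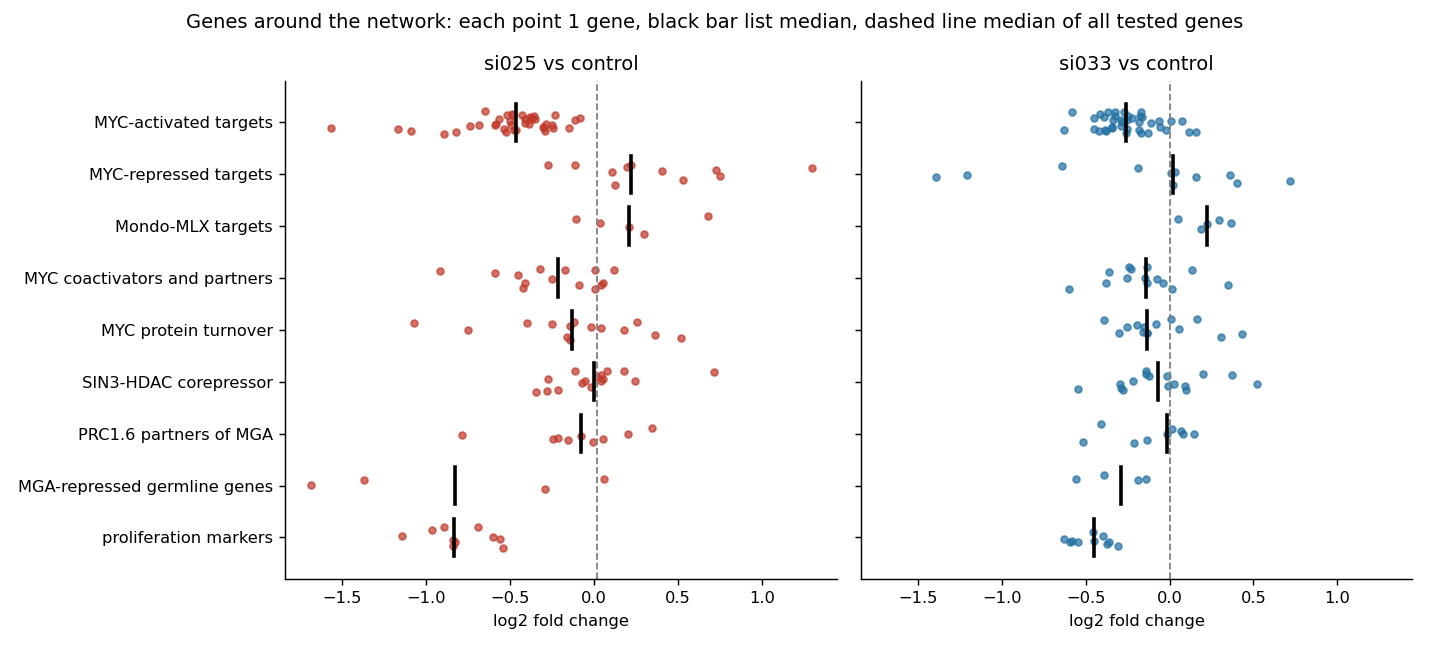
Log2 fold change (horizontal axis) of each gene (point) in 9 gene lists (vertical axis) with si025 (left) and si033 (right). The black bar is the list median and the dashed line the median of all tested genes, at 0.02 and 0.00. The MYC-activated targets and the proliferation markers lie left of the dashed line, with medians of -0.47 and -0.83 with si025 and -0.26 and -0.45 with si033.

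Of 14 genes for MYC coactivators and partners, 8 fell and none rose with si025, and 8 fell and 1, *KAT2A* (0.35), rose with si033. The list's share called was 57.1% and 64.3%, near the 61.7% and 54.8% of all tested genes. The count of 1 was 2 without si033 replicate 2. *RUVBL1* and *RUVBL2*, ATPases of chromatin complexes, changed by -0.46 and -0.59 with si025 and by -0.60 and -0.38 with si033. *ZBTB17*, which encodes MIZ1, was not called in either (0.04 and 0.13), though it was called with si033 without si033 replicate 2 (0.22). *TRRAP* changed by -0.17 and -0.13, and its si033 call was lost in 8 of 18 alternatives, among them the analyses without si033 replicates 1 (-0.10) or 2 (-0.12) and without control replicates 1 (-0.12), 2 (-0.12) or 3 (-0.14). Its si025 call was lost without si025 replicate 2 (-0.11).

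Of 14 genes of MYC protein turnover, 4 rose and 6 fell with si025, and 3 rose and 7 fell with si033. That is 71.4% called with each, beside 61.7% and 54.8% of all tested genes. *FBXW7*, the ubiquitin ligase subunit that marks MYC for degradation, was higher with si025 (0.25, adjusted *p* = 0.00301). With si033 it was at -0.19 (adjusted *p* = 0.0300), a call lost in 8 of 18 alternatives, among them without si033 replicates 1 (-0.17) or 2 (-0.18) and without control replicates 2 (-0.19) or 3 (-0.11). The kinase gene *GSK3B* (0.37 and 0.43) was higher with both. The phosphatase subunit gene *PPP2R5A* was higher with si025 (0.52). The largest fall of the list with si025 was that of *SKP2* (-1.07, adjusted *p* = 3.95e-14). *CIP2A* (-0.75) and *PPP2CA* (-0.25) also fell with si025, so the list did not move one way. The count of 7 went to 4 without si033 replicate 2 and to 3 without control replicate 2. *AURKA*, which stabilises MYC family proteins, was at -0.14 with si025 (adjusted *p* = 0.0130) and 0.16 with si033 (adjusted *p* = 0.00609), and the si025 call was lost without si025 replicate 1 (-0.11) and without control replicate 3 (-0.12). *USP28* was at -0.40 with si025 (adjusted *p* = 5.41e-07). It was also called lower with si033, with changes from -0.14 to -0.08 over the alternatives. That si033 call was lost in 8 of 18 alternatives, among them without si033 replicates 1 (-0.12), 2 (-0.14) or 3 (-0.13).

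The corepressor that MXD proteins recruit did not move one way. Of its 16 genes, 3 rose and 5 fell with si025, and 3 rose and 7 fell with si033. These are 8 and 10 of the 16 genes, beside 61.7% and 54.8% of all tested genes. *SIN3A*, the scaffold, changed by -0.34 and -0.29 (adjusted *p* = 2.85e-07 and 4.69e-06), while its paralogue *SIN3B* changed by 0.24 and 0.20 (adjusted *p* = 0.00109 and 0.00676). *SAP30L* (0.71 and 0.52) and *ARID4A* (0.18 and 0.37) were higher with both. The *ARID4A* call with si025 was lost without si025 replicates 1 or 3 (0.14 in each) and without control replicates 1, 2 or 3 (0.19, 0.17 and 0.18). *HDAC1* was not called with si025 (-0.02) and changed by -0.28 with si033. The PRC1.6 list held 9 tested of 10 genes, with *RING1* listed at 0 in every library. Multi-mapping pairs were not counted, and whether this accounts for the 0 of *RING1* was not tested. In the PRC1.6 list 2 rose and 3 fell with si025, and 1 rose and 3 fell with si033. That is 55.6% and 44.4% called, below the 61.7% and 54.8% of all tested genes. *CBX3* (-0.79 and -0.41) and *TFDP1* (-0.24 and -0.52) fell with both, *CBX1* fell with si025 (-0.21), *YAF2* rose with si025 (0.20), and *RYBP* rose with si025 (0.34) and fell with si033 (-0.14). The *RYBP* call with si033 was lost without si033 replicate 1 (-0.07) and without control replicates 1, 2 or 3 (-0.13, -0.15 and -0.12). The *YAF2* call was lost without si025 replicates 2 (0.19) or 3 (0.18) and without control replicates 2 (0.21) or 3 (0.18). *L3MBTL2* was the gene called higher with si033 (0.14), a call lost without si033 replicate 1 (0.13) and without control replicates 1 (0.15) or 3 (0.14). The count of 2 was 1 without si025 replicates 2 or 3 and without control replicates 2 or 3. *E2F6* (-0.01 and 0.02) and *PCGF6* (-0.16 and -0.21) were not called in either, except *PCGF6* with si033 without si033 replicate 2 (-0.38). Of 14 germline genes that MGA silences in other cells, 4 were expressed enough to be tested, of which 3 (*STAG3*, *SMC1B* and *TDRD1*) fell with si025 and 1 (*TDRD1*) with si033, beside 28.8% and 27.8% of all tested genes. That 1 was 2 without si033 replicate 3. *DAZL* held at most 0.0725 CPM in any library, and *STAG3* fell from 1.05 CPM in control to 0.347 CPM with si025. *SMC1B* was also low, at a mean of 1.51 CPM in control and 0.564 CPM with si025. *TDRD1* was not low, at means of 183 CPM in control, 150 CPM with si025 and 124 CPM with si033.

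E-box letters in promoters were searched in the RefSeq GRCh38.p14 windows, from 250 bases before to 50 after each gene start, on both strands. The motif CACGTG is the same on both strands. It was in 7.43% of 27305 promoters, in 3 of the 9 members with a window (*MXD4*, *MNT* and *MLX*) and in 16 of 34 matched MYC-activated targets. The 27305 promoters are more than the 12810 genes tested, and the share among tested genes alone was not computed. The member without a window was *MYC* itself, so its promoter was not searched. The longer tandem, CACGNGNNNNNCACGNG, was in 0.0732% of promoters, among them *TXNIP*. Sequences of the members with an E-box are shown with those of *TXNIP*, since they bear on the dimers that the members form. Capitals mark the motif, and each run is written 5′ to 3′ on the gene's strand.
MNT, chr17:2401236-2401265, minus strand, GRCh38.p14: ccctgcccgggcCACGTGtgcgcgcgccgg
MLX, chr17:42567038-42567067, plus strand, GRCh38.p14: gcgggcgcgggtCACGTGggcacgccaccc
MXD4, chr4:2262330-2262359, minus strand, GRCh38.p14: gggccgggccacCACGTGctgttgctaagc
TXNIP, chr1:145996644-145996673, minus strand, GRCh38.p14: gatgtgCACGAGGGCAGCACGAGcctccgg

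The E-box starts 193 bases before the start of *MNT*, 50 before that of *MLX* and 238 before that of *MXD4*. These distances count from the gene starts of the windows, which differ from the starts of the gene spans given above. Of these 3 members, *MNT* fell with both siRNAs, *MLX* rose with si033 and *MXD4* was called in no comparison. Among the MYC-activated targets, the 16 with an E-box had a median log2 fold change of -0.44 with si025 and -0.24 with si033, and the 18 without one had medians of -0.47 and -0.29. A match is a description of letters in this window, and no match says only that these letters are not in it.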

How the data were processed

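RNA-seq was measured in 9 VCaP libraries, 3 each for control, si025 and si033. The authors deposited 1 table of gene counts per library. Per the labels and the submitters' processing notes, reads were aligned with HISAT2 2.1.0 to hg38 and counted with featureCounts 1.5.2. The file headers show paired, reverse-stranded counting over exons by gene symbol with a RefSeq annotation, whereas the study's methods name GENCODE. The labels name a Promega RNA kit and the methods a Qiagen kit. Multi-mapping pairs were not counted, so genes with processed pseudogenes are less certain. No columns of other series were present.

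From the counts, genes were filtered with filterByExpr, scaled by TMM and tested with edgeR 4.0.16 (R 4.3.3) by glmQLFit and glmQLFTest, in 1 fit of 3 group means over 9 libraries. Adjusted *p*-values are Benjamini-Hochberg over the 12810 genes tested, at a threshold of 0.05. CPM and RPKM were computed from the same scaling, RPKM with the exon length in the tables. The biological coefficient of variation was 4.13%. The script was tested on simulated data. Library totals of 11649811 to 28492259 set the precision, and intervals are at 95%.

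The members and lists were chosen with earlier results of these data known. Named genes are the 10 members, 34 genes set by role and the 5 nearest in pattern to *MYC*. Other names were chosen after values were seen. Some list genes are not reported here by name. For each tested result 18 alternatives were run, 9 of which leave out 1 library. These include RLE, upper quartile and no normalisation beyond totals, other filters, DESeq2 1.42.0, limma 3.58.1 and a replicate block. The labels do not say that a replicate number marks a shared culture or day. Promoter windows and their gene starts come from RefSeq.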

Additional observations from a re-analysis of the deposited data

Results flagged for a closer look

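Of the 10 members 7 differed between si025 and si033 when the siRNAs were compared directly with edgeR, although both were designed against exon 1 of 1 transcript. The log2 difference, si025 against si033, was -0.26 for *MYC*, -0.32 for *MAX*, 0.28 for *MXD1*, -0.50 for *MXD3*, -0.28 for *MNT*, -0.22 for *MLX* and -0.37 for *MLXIP*. The members' share called was 70.0%, beside 60.9% of all tested genes, so most genes outside the network differed as well.

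Of the 32 tested genes set by role, 20 differed in the same comparison, a share near the 60.9% of all tested genes. Those higher with si025 were *MYCL* (1.20), *RUVBL1* (0.14), *FBXW7* (0.45), *HDAC1* (0.26), *CDKN1A* (1.95) and *NDRG1* (0.59). Those lower with si025 were *RUVBL2* (-0.21), *USP28* (-0.27), *AURKA* (-0.31), *L3MBTL2* (-0.22), *NCL* (-0.18), *NPM1* (-0.33), *ODC1* (-0.54), *CAD* (-0.18), *LDHA* (-0.56), *CDK4* (-0.27), *SRM* (-0.33), *ARRDC4* (-0.19), *HK2* (-0.16) and *STAG3* (-1.55). The *RUVBL1* difference was not called without si025 replicate 2 (0.09) or si033 replicate 3 (0.12). The *ARRDC4* difference was not called without si033 replicate 3 (-0.14), nor was the *HK2* difference (-0.12), which was also lost without si025 replicate 1 (-0.14).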

How the results depend on the processing

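Of 540 alternative values for the 30 member results, 524 kept direction and call, 14 lost the call, 2 gained it and none reversed. The *MYC* change lay between -0.81 and -0.73 under si025 and between -0.54 and -0.47 under si033. The count of members called lower with si033, 5, was 3 with library totals alone, and ranged from 3 to 5 when 1 library was left out, with 3 without control replicate 2. The *MYC* share of the MAX partners among the members differed from control by -6.63 percentage points with si025 and -4.83 with si033. It differed by -9.41 and -6.03 when CPM was not divided by gene length. *MYC* has the shortest exon length of the members, 2366 bases. Among 1725 alternative values for the named list genes, 54 lost a call, 29 gained one and none reversed. Another scaling moved the median of all genes by at most 0.05 on the log2 scale.

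Same-numbered libraries showed no clear common deviation (9 pairs, correlations -0.02 to 0.07, none over 0.1). Libraries with unlike numbers reached -0.12 and 0.106. Values this small cannot exclude a weak effect of a shared culture or day. With a replicate block the *MYC* change was -0.78 with si025, -0.52 with si033 and -0.27 between the siRNAs, 8000, 7094 and 7843 genes were called, and no member call changed.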
